A study of Mus musculus with 7 samples.

Results

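Cytotoxic lymphocytes kill target cells with a small set of gene products, and 8 genes that encode them are described here across the T cells and natural killer (NK) cells of mouse gliomas: Gzma, Gzmb, Gzmc and Gzmk (granzymes), Prf1 (perforin), Nkg7 (a granule membrane protein), Fasl (the ligand of the death receptor Fas) and Ifng (interferon-gamma). They were listed by name, by a rule that uses no measured value, although earlier results of these data were known, and are 8 of the 55491 genes in the deposited matrix. The cells came from the tumour-bearing hemisphere of mice carrying an intracranial CT-2A tumour, a transplantable mouse glioma line. The sort kept live cells positive for CD45, CD11b or both, and 1 droplet 5′ single-cell RNA library was made per mouse. The 4 mice called KO here carried the Sall1CreERT2 driver and the floxed Siglece alleles (Siglecefl/fl), and the 3 called WT carried Siglecefl/fl without the driver.

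All 7 mice received the tumour at 8 to 12 weeks of age and 2.5 mg tamoxifen by intraperitoneal injection, daily from day 7 after engraftment to day 21 and every other day after that. The labels give the driver allele as B6;129 and the Siglece allele as B6.129P2. Siglece encodes an inhibitory sialic-acid receptor of myeloid cells, and Sall1 is expressed in the brain by microglia, so the driver targets microglia and not the lymphocytes described here. The WT mice lacked the driver itself, so effects of the driver and of the deletion cannot be told apart. In microglia, Siglece had 2, 1, 0 and 0 UMIs (unique molecular identifiers, which count captured RNA molecules) in KO replicates 1 to 4, and 20, 19 and 7 in WT replicates 1 to 3. The KO mice had fewer microglia (113 against 301 cells), and per 1000000 UMIs the levels were 10.7, 19.6, 0 and 0 in KO and 36.1, 45.9 and 18.6 in WT, so KO replicate 2 lay above WT replicate 3. In T and NK cells, Siglece had 200 UMIs of 61337059 in the KO mice and 37 of 18369656 in the WT mice.

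Granzymes are serine proteases stored in cytotoxic granules. On contact with a target cell the granules are released, perforin forms pores in the target membrane, and granzymes enter the target and start its death. Fas ligand triggers death through a receptor, without granules, and interferon-gamma is a secreted cytokine that raises antigen presentation and activates macrophages. NK cells and CD8 T cells are the main users of this machinery, and some CD4 T cells and regulatory T cells use parts of it.

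The authors named 23 cell types among 28644 cells. Of these, 10 names cover T cells (13692 cells) and 1 covers NK cells (909 cells), and both together are 14601 cells. The libraries held 311 to 3792 T cells and 51 to 259 NK cells, with 1693599 to 21820831 UMIs in T cells and 270957 to 1491563 UMIs in NK cells. Of the cell barcodes, 460 occurred in more than 1 library, covering 926 cells (3.23%), 488 of them T or NK cells. Xist and 4 Y-linked genes separated the mice into 3 females (KO replicates 1 and 2 and WT replicate 3) and 4 males. Per 1000000 UMIs, Xist was at 503, 419 and 456 in the females and the Y-linked genes at 122 to 151 in the males. Xist was at 0.92 in the male KO replicate 3, but at 24.0, 35.4 and 20.3 in the males KO replicate 4 and WT replicates 1 and 2. The source of these Xist UMIs was not tested. A level below is the number of UMIs of a gene per 1000000 UMIs of the cells summed (CPM), given per mouse for cell types with at least 20 cells in that mouse. WT replicate 1 had fewer than 20 cells in 6 of the 11 cell types.

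The names were checked against marker genes. The 8 NK markers summed to 1767 to 2747 CPM in NK cells, and Ncr1, an NK receptor, was at 382 CPM there. In CD8 types Ncr1 was at 27.3 CPM (1.9 to 67.8) in proliferating and 25.0 CPM (8.7 to 44.7) in naive or early activated cells, against 1.6 CPM in exhausted and 1.0 CPM in precursor-exhausted cells. Klrb1c, which encodes the NK1.1 receptor, was at 37.2, 74.9, 13.6 and 13.6 CPM in these 4 types in the same order and at 349 CPM in NK cells. All 8 NK markers were detected in each of the 4, with sums of 502 to 837, 466 to 676, 464 to 933 and 693 to 948 CPM. These markers were not alike within CD8 cells. Among CD8 cells with 0 Gzma UMIs, Klrd1 was found in 57.9% to 86.6% and Klre1 in 20.6% to 57.6% of cells per mouse. Itga2, Klra8 and Klra4 were each found in at most 2.0% of them. The sums thus include Klrd1, a marker detected in most of these CD8 cells. Foxp3, which defines regulatory T cells (Tregs), was at 532 CPM in Tregs. Trdc, a gamma-delta receptor gene, was at a mean of 277 CPM in gamma-delta T cells, with a wide spread (SD 216, range 0 to 526, n = 4 mice). The 3 gamma-delta markers present in the matrix summed to 1657 to 2456 CPM in these mice. In the other T and NK cell types the sum was at most 325 CPM in a mouse (naive or early activated CD4 cells). Some names were not, or only in part, borne out by their markers. The cells named follicular helper T cells (Tfh) had Cxcr5, their defining chemokine receptor, at 1.7 CPM, against 4.0 CPM in the cells named Th1. Bcl6, their transcription factor, was at 28.4 ± 14.3 CPM (n = 6), the highest mean of the 11 cell types, with 25.6 ± 13.6 CPM (n = 6) in the cells named Th1. The markers were thus mixed, and the authors' name is used here without that identity. The cells named precursor-exhausted CD8 had 14.2 CPM of Tcf7 and 7.3 CPM of Slamf6, below the 20.9 and 8.5 CPM in exhausted CD8 cells. Both of these are usual markers of precursors, and Tcf7 was at 230 CPM in naive or early activated CD4 cells and 145 CPM in naive or early activated CD8 cells. Because the names were probably made from the expression of these same cells, differences between cell types are a description and carry no test.

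Over all cells, 97.6% (Prf1) to 98.8% (Gzmc) of each gene's UMIs lay in T or NK cells. Background levels in myeloid cells were 5.4 CPM for Gzma, 10.1 for Gzmb, 3.7 for Gzmc, 1.2 for Gzmk, 1.3 for Prf1, 18.5 for Nkg7, 1.2 for Fasl and 6.3 for Ifng. The plot of levels by cell type shows that each gene had its own order of cell types and its own spread between mice.

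**Figure D1:**
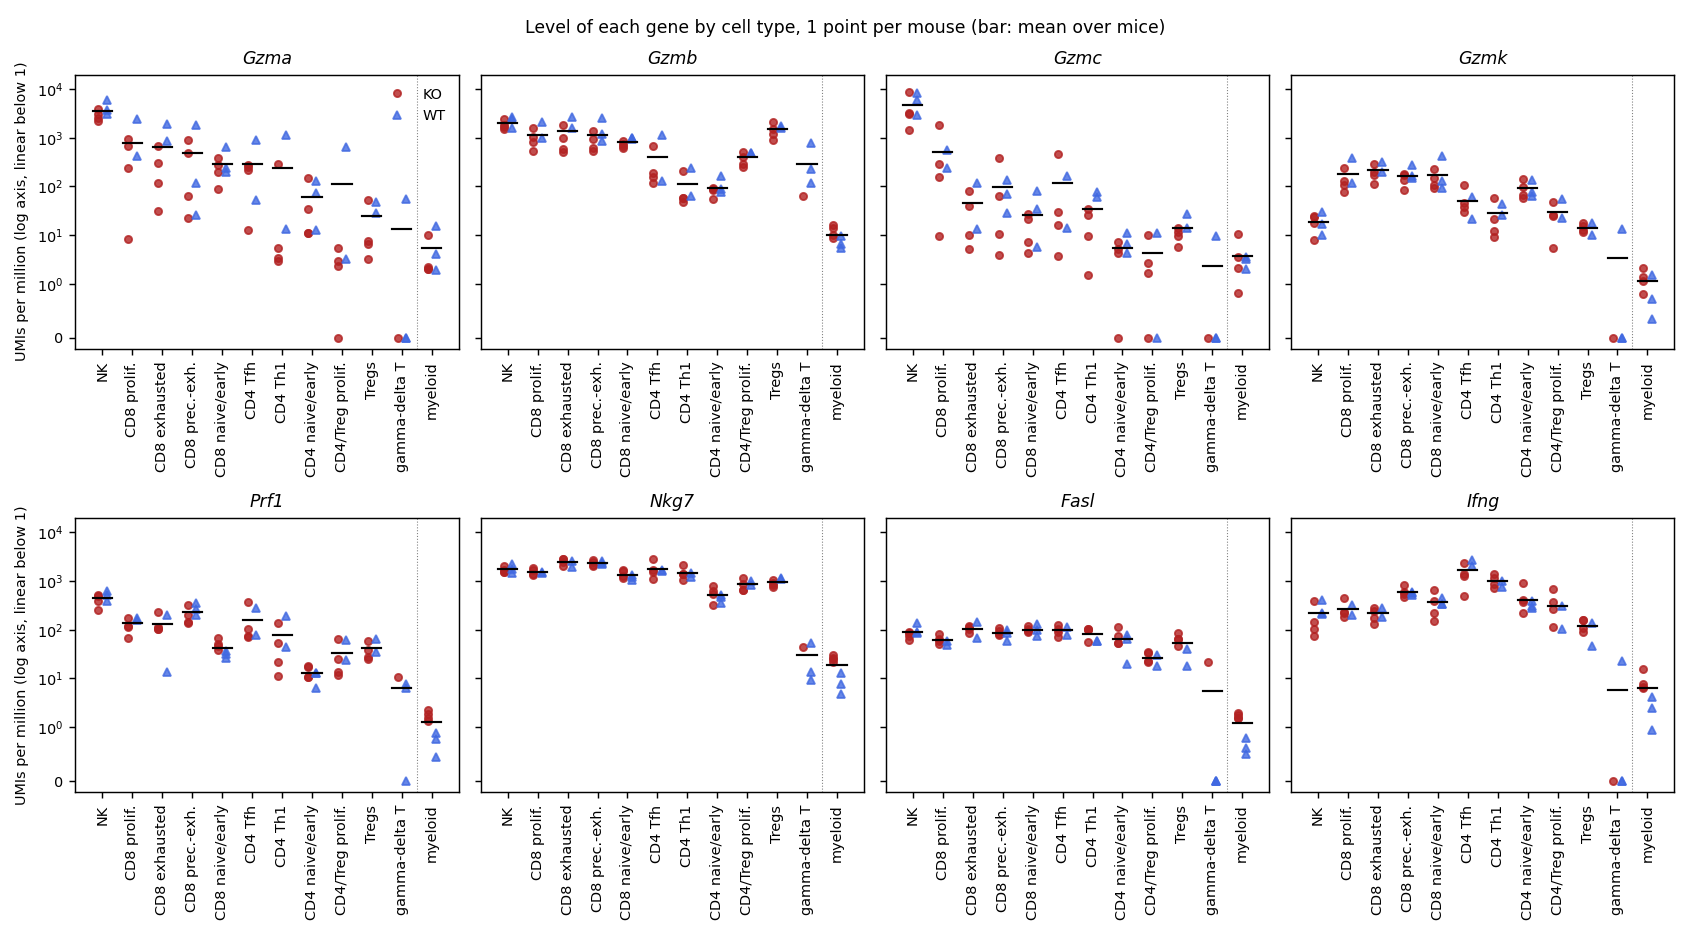
Level of each of the 8 genes in CPM (log axis, linear below 1) in 11 T and NK cell types and in myeloid cells, with 1 point per mouse (circles KO, triangles WT) and a bar at the mean over mice. Gzma and Gzmc stand highest in NK cells and their points spread widely in the T cell types, whereas the points of Nkg7 and Fasl lie close together in most cell types.

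The granzyme genes lie in 2 clusters. On build GRCm38, Gzma (chr13:113093825-113100981) and Gzmk (chr13:113171608-113225908) are neighbours on chromosome 13, and Gzmb (chr14:56258838-56262260) and Gzmc (chr14:56231441-56234656) lie on chromosome 14, each on the minus strand. The 250 bases before each RefSeq start (build GRCm38.p6) are printed because neighbours in 1 cluster had unlike levels, as described next. Capitals mark matches, on either strand, to 4 short motifs: the RUNX core TGTGGT, the AP-1 site TGANTCA, the T-box core GGTGTG and the TATA box TATAAA. These motifs occur in 14.04%, 6.75%, 16.3% and 12.4% of 32817 promoter windows of the same length, so a match is a description and not a known binding site. The sequences run 5′ to 3′.
Gzma, chr13:113100982-113101231, minus strand: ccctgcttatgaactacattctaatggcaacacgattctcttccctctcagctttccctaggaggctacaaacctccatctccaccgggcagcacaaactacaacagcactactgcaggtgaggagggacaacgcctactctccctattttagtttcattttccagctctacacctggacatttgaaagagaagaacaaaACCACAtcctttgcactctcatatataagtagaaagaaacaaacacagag
Gzmk, chr13:113180966-113181215, minus strand: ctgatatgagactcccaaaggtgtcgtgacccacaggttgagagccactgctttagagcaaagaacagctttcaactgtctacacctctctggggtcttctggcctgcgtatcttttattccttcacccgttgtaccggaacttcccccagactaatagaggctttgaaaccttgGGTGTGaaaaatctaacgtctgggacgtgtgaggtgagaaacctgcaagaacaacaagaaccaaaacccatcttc
Gzmb, chr14:56262335-56262584, minus strand: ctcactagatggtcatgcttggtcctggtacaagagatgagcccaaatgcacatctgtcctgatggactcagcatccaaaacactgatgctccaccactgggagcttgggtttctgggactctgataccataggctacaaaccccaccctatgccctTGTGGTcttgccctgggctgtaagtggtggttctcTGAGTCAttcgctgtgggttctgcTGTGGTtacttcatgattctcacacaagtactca
Gzmc, chr14:56234658-56234907, minus strand: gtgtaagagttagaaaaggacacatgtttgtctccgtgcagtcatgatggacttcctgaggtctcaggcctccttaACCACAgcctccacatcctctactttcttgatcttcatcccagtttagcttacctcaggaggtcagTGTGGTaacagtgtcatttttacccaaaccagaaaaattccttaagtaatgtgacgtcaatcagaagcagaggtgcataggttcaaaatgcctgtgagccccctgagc
In Gzma the RUNX core matched once. In Gzmb it matched 2 times, with 1 AP-1 site between the matches, and in Gzmc it matched 2 times. In Gzmk it did not occur in this window, where the T-box core matched once. Among the other members, the same windows held the RUNX core in Prf1 and Nkg7, the T-box core in Nkg7 and Fasl, and the TATA box in Ifng.

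Gzma, a granzyme that cuts several substrates in target cells and also acts outside cells, was highest in NK cells. Its level there was 2534, 3061, 3982 and 2229 CPM in KO replicates 1 to 4 and 5898, 3019 and 3732 CPM in WT replicates 1 to 3. NK cells held more Gzma than any T cell type within each of the 7 mice. The next levels were in proliferating CD8 cells (782 ± 858 CPM, mean ± SD, n = 6 mice), exhausted CD8 cells (652 ± 704, n = 6) and precursor-exhausted CD8 cells (491 ± 667, n = 7). The SD was larger than the mean in these 3 cell types, so their order does not hold beyond the spread between mice. In precursor-exhausted CD8 cells the mice ran from 22.6 CPM (KO replicate 3) to 1811 CPM (WT replicate 3). Naive or early activated CD8 cells were at 290 ± 180 CPM (n = 7), and they exceeded precursor-exhausted cells in 4 of 7 mice. Tregs (24.1 ± 21.6 CPM, n = 6) and gamma-delta T cells (13.6 CPM, at 0 in 3 of 4 mice) had the lowest means. Proliferating CD4 cells and Tregs had a higher mean of 110 CPM through WT replicate 3 (647 CPM), with the other 5 mice at 0 to 5.4 CPM, and they exceeded Tregs in 1 of 6 mice. Cells named Th1 exceeded Tregs in 2 of 6 mice, KO replicate 2 (284 CPM) and WT replicate 3 (1133 CPM), so the order of these types by their means does not hold within most mice.

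Gzmk, a granzyme of CD8 memory and effector cells, had a different order although it lies next to Gzma. It was highest in exhausted CD8 cells (213 ± 75.1 CPM, n = 6), followed by proliferating CD8 (178 ± 120, n = 6), naive or early activated CD8 (175 ± 116, n = 7) and precursor-exhausted CD8 cells (168 ± 58.7, n = 7). These 4 ranges overlapped, but exhausted exceeded precursor-exhausted cells in 6 of 6 mice. NK cells had 23.4, 24.5, 18 and 8.0 CPM in the KO mice and 29.5, 10.0 and 16.6 CPM in the WT mice. Each NK value was below the precursor-exhausted value of the same mouse, in 7 of 7 mice. Naive or early activated CD4 cells had 91.7 ± 34.5 CPM (n = 7), above Tregs with 14.1 ± 3.2 CPM (n = 6).

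Gzmb, the granzyme that activates caspases in target cells, was spread over more cell types. NK cells had 2024 ± 489 CPM (n = 7), Tregs 1526 ± 438 (n = 6), exhausted CD8 cells 1372 ± 845 (n = 6), proliferating CD8 cells 1164 ± 556 (n = 6) and precursor-exhausted CD8 cells 1151 ± 674 (n = 7). Their ranges overlapped, and NK cells exceeded Tregs in 3 of 6 mice. The Treg values were 2131, 1525, 884 and 1202 CPM in the KO mice and 1783 and 1630 CPM in WT replicates 2 and 3. Between neighbours in the order, the ranges were apart once, between naive or early activated CD8 cells (827 ± 150 CPM, lowest mouse 608) and proliferating CD4 cells and Tregs (406 ± 112 CPM, highest mouse 510). Gamma-delta T cells had 65.0 CPM in KO replicate 1 and 771, 116 and 232 CPM in WT replicates 1 to 3. Cells named Th1 (114 ± 88.4 CPM, n = 6) and naive or early activated CD4 cells (93.2 ± 32.8, n = 7) had the lowest means.

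Gzmc, a rodent granzyme next to Gzmb, was far higher in NK cells than in T cells. NK cells had 8743, 3306, 1438 and 3126 CPM in the KO mice and 8189, 2955 and 6073 CPM in the WT mice, and were highest in 7 of 7 mice. Proliferating CD8 cells had 512 ± 659 CPM (n = 6), with KO replicate 1 at 1804 CPM and KO replicate 3 at 9.5 CPM. The part of the NK markers in these cells and in naive or early activated CD8 cells, given above, in their Gzma and Gzmc levels was not tested. In Tregs, where Gzmb was high, Gzmc was at 13.8 ± 7.5 CPM (n = 6). Of the UMIs of Gzmc, 3.02% were not whole numbers, and how such values arose is not given in the sources used here. Its relatives Gzmf, Gzmd, Gzmg and Gzme were at 855, 542, 328 and 225 CPM on average in NK cells, with an SD above the mean in each. The shares of their UMIs that were not whole were 0.301%, 39.6%, 82.7% and 12.5%, so how reads were divided among these copies is uncertain for the last 3.

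Prf1, the pore-forming protein that lets granzymes in, was highest in NK cells in 7 of 7 mice, at 530, 397, 254 and 502 CPM in the KO mice and 513, 392 and 613 CPM in the WT mice. Precursor-exhausted CD8 cells followed with 233 ± 85.2 CPM (n = 7) and exceeded exhausted CD8 cells (129 ± 78.3, n = 6) in 6 of 6 mice. This order is the reverse of that of Gzmk in the same 2 cell types. Tregs had 41.5 ± 16.4 CPM (n = 6) of Prf1, although their Gzmb level was second to that of NK cells. Nkg7, needed for granule release, had a narrow spread. It was at 2450 ± 359 CPM in exhausted (n = 6) and 2374 ± 222 in precursor-exhausted CD8 cells (n = 7), 1757 ± 266 in NK cells (n = 7), 520 ± 166 in naive or early activated CD4 cells (n = 7) and 30.2 ± 22.0 in gamma-delta T cells (n = 4). The gamma-delta values of 43.3, 9.4, 54.2 and 13.6 CPM lay below those of every other T or NK cell type.

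Fasl, the death ligand, had similar levels in most cell types and lower ones in a few. It was at 105 ± 26.2 CPM in exhausted CD8 (n = 6), 101 ± 18.5 in naive or early activated CD8 (n = 7), 89.7 ± 23.2 in NK (n = 7) and 53.4 ± 24.1 in Tregs (n = 6). Proliferating CD4 cells and Tregs had 26.7 ± 6.7 CPM (n = 6), and exhausted CD8 cells exceeded them, Tregs and proliferating CD8 cells in 6 of 6 mice each. Gamma-delta T cells were at 21.7 CPM in KO replicate 1 and listed at 0 in the 3 WT mice. Ifng, the cytokine, was highest in the cells named Tfh, at 2351, 1401, 1270 and 485 CPM in the KO mice and 2089 and 2728 CPM in WT replicates 2 and 3. Cells named Th1 followed with 989 ± 257 CPM (n = 6) and precursor-exhausted CD8 cells with 590 ± 108 (n = 7). The cells named Tfh were highest for Ifng in 5 of the 6 mice with at least 20 such cells. NK cells had 221 ± 132 CPM (n = 7) and exhausted CD8 cells 218 ± 61.9 (n = 6), the 8th and 9th of 11 in the order of means. NK cells led the order for 3 granzymes and exhausted CD8 cells led it for Gzmk. Of the Ifng UMIs, 10.9% were not whole.

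The spread between mice was unlike between the genes. The median coefficient of variation over the 11 cell types was 16.7% for Nkg7, 25.0% for Fasl, 39.5% for Prf1, 44.8% for Ifng, 47.8% for Gzmb, 59.9% for Gzmk, 104% for Gzmc and 110% for Gzma. Nkg7 and Fasl were thus the steadiest members and the granzymes Gzma and Gzmc the most variable, with counting error in scarce cell types included in these values.

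Levels can come from a few cells with many UMIs, so the share of cells with at least 1 UMI was computed after each cell was thinned to 2000 UMIs. The thinning left out 566 of 10617 T cells (5.33%) and 52 of 713 NK cells (7.29%) in the KO mice, and 189 of 3075 (6.15%) and 8 of 196 (4.08%) in the WT mice. Background shares at this depth in myeloid cells (median 7062 UMIs before thinning) ran from 0.23% (Prf1, Fasl) to 3.18% (Nkg7), with 1.76% for Gzmb and 0.99% for Ifng. In B cells (median 7302 UMIs) Nkg7 reached 5.82%, Ifng 3.00% and Gzmb 2.77%. T cells had a median of 4748 and NK cells of 5126 UMIs.

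In NK cells 92.5% were positive for Nkg7 (98.0% without thinning), 69.5 ± 9.9% for Gzmb (81.2%), 64.2 ± 11.6% for Gzma (71.0%), 40.2 ± 5.8% for Prf1 (58.7%) and 33.9 ± 10.8% for Gzmc (38.3%), each over 7 mice. Ifng was seen in 23.7 ± 10.1% of NK cells (33.8%), with KO replicate 1 at 13.4% and WT replicate 1 at 39.3%. For Gzmb, 65.1 ± 11.5% of Tregs (71.8%) were positive, against 54.2 ± 17.4% of exhausted CD8 (66.4%) and 28.5 ± 15.6% of gamma-delta T cells (34.5%). Nkg7 was seen in 4.7% of gamma-delta T cells, below its share in B cells, which is read as background. For Gzma the shares in Tregs (2.1%) and gamma-delta cells (2.0%) were also low, against 0.73% in myeloid cells. The map of shares by cell type gives the remaining values.

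**Figure D2:**
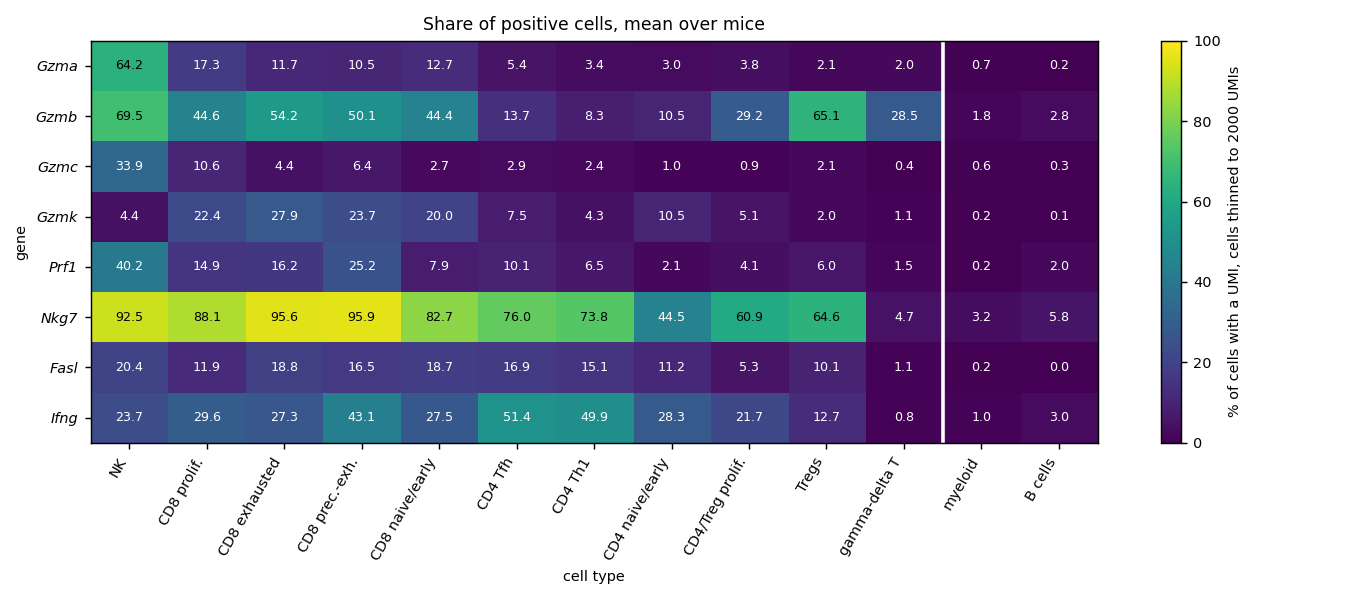
Share of cells with at least 1 UMI of each gene after thinning to 2000 UMIs per cell, as the mean over mice in percent (colour and number), for 11 T and NK cell types and, right of the white line, myeloid and B cells as background. Gzma, Gzmb, Gzmc and Prf1 have their highest shares in NK cells, with Gzmb also high in Tregs. Gzmk has its highest shares in CD8 cells, and Ifng in the cells named Tfh and Th1.

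The genes were also counted in pairs within single cells at the same depth. Among exhausted CD8 cells 18.7% held both Gzmk and Gzmb, 9.2% Gzmk without Gzmb and 35.5% Gzmb without Gzmk. In precursor-exhausted CD8 cells these shares were 15.3 ± 7.8%, 8.5% and 34.8%, against 16.0% and 12.4% for both genes in exhausted and precursor-exhausted cells if the product of both shares held. On average more Gzmk-positive cells had Gzmb than lacked it, but the order was the reverse in KO replicates 3 and 4 in exhausted cells and in KO replicate 4 and WT replicate 1 in precursor-exhausted cells. Shares with Ifng or Gzmb differed between cell types. In the cells named Tfh 42.8% had Ifng without Gzmb, 5.1% Gzmb without Ifng and 8.5% both. In those named Th1 the shares were 45.5%, 3.9% and 4.4%. For both genes the product of both shares gives 7.3% in the cells named Tfh and 4.2% in those named Th1. Cells with both were thus on average not rarer than that product. In precursor-exhausted CD8 cells 22.4% had both, close to the 21.7% that the product of both shares gives. Gzma and Gzmb occurred together in 49.5 ± 12.9% of NK cells.

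The genes whose mean level over the 23 cell types was most like that of each member were found by Pearson's r of log2(CPM + 1) among 13087 genes. These values share libraries and cell types and are a description. Nkg7 and Fasl were most like each other (r = 0.977), followed for both by Sh2d1a or Klrc1. Prf1 was most like Nkg7 (0.948). Gzma was most like Klrc2 (0.968), which encodes an NK receptor subunit, and Gzmb most like Sytl2 (0.967), which encodes a vesicle-docking protein. Gzmc was most like Gzma (0.874) and Gzmf (0.873), Gzmk most like Trbv12-2 (0.974), a T cell receptor beta segment, and Ifng most like Ubash3a (0.965). The lowest r between 2 members was that of Gzmc with Gzmk (0.666).

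The study's own comparison is KO against WT. In all T cells summed per mouse, 0 of 13043 genes passed an adjusted p of 0.05 in edgeR's quasi-likelihood test (background 0.0%), and 0 of the 8 members passed. At an unadjusted p under 0.05 there were 2 members of 8, against 6.56% of the genes tested. Of the members, 5 were higher and 3 lower in KO, with a median log2 fold change of 0.13, against 0.01 over all genes tested. In a sum over all T cells, fewer cells of a type and a lower level within that type cannot be told apart. Values with the shares of cell types held equal and fits within single cell types are therefore given below.

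Fasl in T cells was at 76.5, 91.2, 108 and 71.6 CPM in the KO mice and 55.5, 70.5 and 65.2 CPM in the WT mice. The groups did not overlap, which 7.28% of the genes tested also showed, with KO replicate 4 barely above WT replicate 2. The log2 fold change was 0.47 (SE 0.16, unadjusted p = 0.0165, edgeR adjusted p = 0.721). Nkg7 was at 1827, 1642, 2245 and 2039 CPM in the KO mice against 1019, 1366 and 1801 CPM in the WT mice, so WT replicate 3 lay inside the KO range. Its log2 fold change was 0.50 (SE 0.21, unadjusted p = 0.0392, edgeR adjusted p = 0.733). The makeup of the T cells moved with these values: precursor-exhausted CD8 cells, rich in Nkg7, were 23.5, 41.0, 53.8 and 33.1% of T cells in the KO mice and 6.75, 10.6 and 35.4% in the WT mice. With the shares of cell types held equal over the 7 of 10 T cell types that had at least 10 cells in each mouse (without exhausted CD8, Th1 and Tregs), the log2 difference was 0.18 for Fasl (adjusted p = 0.867 in limma) and 0.04 for Nkg7 (adjusted p = 0.963 in limma). Over all 10 T cell types in the 6 mice other than WT replicate 1 it was 0.18 for Fasl and 0.01 for Nkg7 (both adjusted p = 1.00 in limma).

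In myeloid cells, where these genes were near background, Nkg7 was at 26.7, 21.8, 25.4 and 30.6 CPM in KO and 4.8, 7.5 and 12.6 CPM in WT, and Fasl at 1.92, 1.56, 1.52 and 1.74 CPM in KO and 0.50, 0.79 and 0.62 CPM in WT. Each KO mouse was above each WT mouse for 4 of the 8 members (Prf1, Nkg7, Fasl and Ifng) and for 5.68% of the 14588 genes with at least 10 UMIs in at least 3 mice. The KO libraries also held 613, 2663, 3792 and 3549 T cells and the WT libraries 311, 1504 and 1260, and the part of free RNA or doublets in this difference was not tested.

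For the 4 granzymes in T cells the groups overlapped, and the sign of each difference turned when 1 mouse was left out. Gzma was at 513, 371, 24.1 and 93.4 CPM in the KO mice against 60.8, 99.4 and 1451 CPM in the WT mice. WT replicate 3 was far above the other 6 mice and the remaining WT mice lay inside the KO range. The log2 fold change was -1.12 (SE 1.49, edgeR adjusted p = 0.922) and turned to 1.71 without WT replicate 3 (adjusted p = 0.810). Gzmb was at 1083, 755, 468 and 594 CPM in the KO mice against 728, 709 and 1697 CPM in the WT mice, a log2 change of -0.51 (SE 0.41, edgeR adjusted p = 0.863) that became 0.10 without WT replicate 3 (adjusted p = 0.993). Gzmc was at 452, 50.4, 5.1 and 35.8 CPM in the KO mice against 169, 32.6 and 156 CPM in the WT mice, and its log2 change of 0.23 (SE 1.52, edgeR adjusted p = 0.997) became -1.94 without KO replicate 1 (adjusted p = 0.694). Gzmk was at 125, 99.7, 160 and 73.6 CPM in the KO mice against 127, 67.2 and 202 CPM in the WT mice (log2 change -0.19, SE 0.40; 0.34 without WT replicate 3).

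Prf1 in T cells was at 199, 94.2, 113 and 119 CPM in the KO mice against 107, 66.5 and 193 CPM in the WT mice (log2 change 0.12, SE 0.41). Ifng was at 697, 614, 709 and 369 CPM in the KO mice against 392, 598 and 667 CPM in the WT mice (log2 change 0.14, SE 0.26). Both genes had overlapping groups, with the highest and lowest values of each genotype interleaved. Their sign turned without single mice: Prf1 to -0.16 without KO replicate 1 and -0.19 without WT replicate 2, and Ifng to -0.07 without WT replicate 1. With the shares of T cell types held equal, Prf1 was at -0.51 over 7 types and -0.25 over all 10 in 6 mice, Ifng at -0.26 and -0.20, and Gzmc at -0.90 and -0.75.

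In NK cells 1 of 7068 genes passed the adjusted threshold (0.0141%), and 0 of the 8 members did. An unadjusted p under 0.05 was seen for 0 members and 4.09% of the genes tested. Of the members, 7 were lower in KO, with a median log2 fold change of -0.34 against -0.01 over all genes tested. The groups overlapped for all 8 members, while 6.48% of the genes tested had groups apart. The Gzma values given above corresponded to a log2 change of -0.54 (SE 0.26, unadjusted p = 0.0653, edgeR adjusted p = 1.00). The highest value, 5898 CPM, was that of WT replicate 1, which had 51 NK cells, and without that mouse the change was -0.20 (adjusted p = 0.998).

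Gzmb in NK cells was at 1813, 1507, 1677 and 2448 CPM in the KO mice against 2683, 1580 and 2458 CPM in the WT mice (log2 change -0.29, SE 0.20, edgeR adjusted p = 1.00). Fasl was at 61.7, 74.9, 86.7 and 91.8 CPM in the KO mice against 137, 90.4 and 85.9 CPM in the WT mice (log2 change -0.39, SE 0.22, unadjusted p = 0.0957). Ifng was at 72.7, 145, 385 and 104 CPM in the KO mice against 409, 224 and 208 CPM in the WT mice (log2 change -0.72, SE 0.66). In each of these the WT mice were higher on average, with at least 1 KO mouse inside the WT range. Without WT replicate 1 and its 51 cells the changes were -0.12 for Gzmb, -0.16 for Fasl, -0.35 for Ifng and -0.11 for Gzmc. Gzmb was at -0.46 without WT replicate 2, -0.44 without KO replicate 4 and -0.18 without WT replicate 3, and Ifng at -1.36 without KO replicate 3 and -0.45 without KO replicate 1. Prf1 was at -0.08 without WT replicate 3 and -0.09 without KO replicate 3, and Gzmc at -1.14 without KO replicate 1, -0.18 without KO replicate 3 and -0.76 without WT replicate 2. The changes of Gzmc (-0.47, SE 0.72), Prf1 (-0.28, SE 0.24), Nkg7 (-0.10, SE 0.16) and Gzmk (0.02, SE 0.46) were smaller than or about equal to their SE. The direction of Fasl differed between T and NK cells (difference of the log2 changes, NK minus T, -0.74, SE 0.24, unadjusted p = 0.00709), but this did not pass the adjustment (edgeR adjusted p = 0.947). It was the 1 member of 8 at an unadjusted p under 0.05, against 4.73% of the genes tested, and 0.037% of these passed the adjustment.

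**Figure D3:**
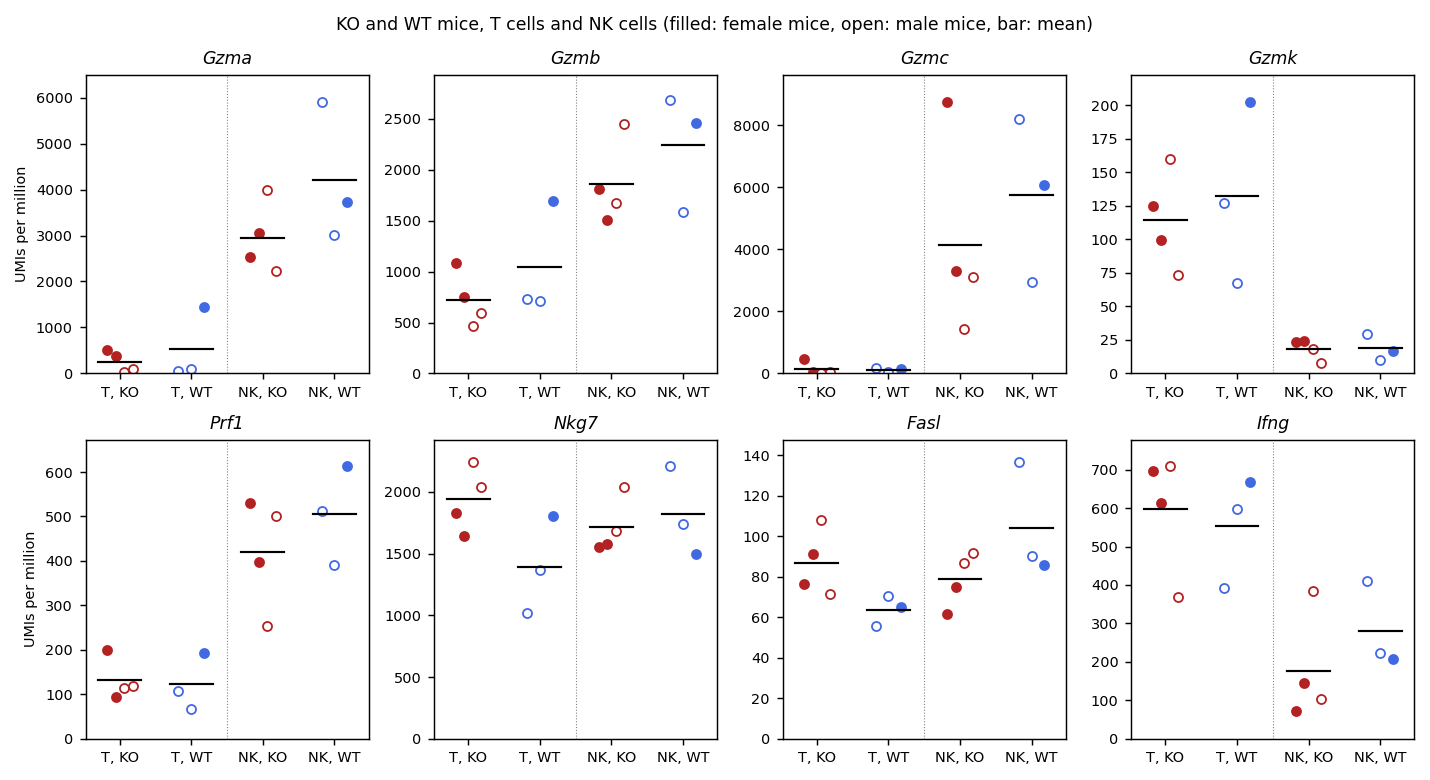
Level of each gene in CPM (vertical axis from 0, 1 panel per gene) in all T cells and in NK cells of the 4 KO and 3 WT mice, with filled points for female mice, open points for males and a bar at the mean. KO and WT points overlap in each panel except for Fasl in T cells, and WT replicate 3 stands apart for Gzma and Gzmb in T cells.

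Each of 9 T cell types and NK cells was then fitted on its own. Gamma-delta T cells could not be fitted, since 1 KO mouse had at least 20 such cells, and in 6 cell types WT replicate 1 dropped out, leaving 4 against 2 mice. Of 75 tests of members, 0 passed the adjustment (0.0186% of all tests in these fits) and 4 had an unadjusted p under 0.05, which is 5.33% against 4.24% of all tests. In naive or early activated CD8 cells Gzmb was lower in KO, at 738, 685, 608 and 869 CPM against 981, 931 and 979 CPM (log2 change -0.40, SE 0.15, unadjusted p = 0.0109, edgeR adjusted p = 0.889), where 4.97% of the genes tested had an unadjusted p under 0.05. In the same cells Prf1 was higher in KO, at 51.0, 46.1, 67.4 and 37.7 CPM against 32.2, 26.0 and 37.0 CPM (log2 change 0.73, SE 0.27, unadjusted p = 0.0120, edgeR adjusted p = 0.889). Neither gene's groups overlapped, as for 6.76% of the genes tested in these cells, although Prf1 in KO replicate 4 was within 1 CPM of WT replicate 3.

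Fasl gave the other 2 tests. In Tregs it was at 63.2, 87.6, 65.6 and 46.0 CPM in the KO mice against 40.6 and 17.7 CPM in the WT mice (log2 change 0.93, SE 0.33, unadjusted p = 0.0110, edgeR adjusted p = 0.793), without overlap. In Tregs 15.0% of the genes tested had no overlap and 5.02% an unadjusted p under 0.05. In the cells named Th1 it was at 103, 102, 101 and 57.0 CPM in the KO mice against 58.7 and 59.3 CPM in the WT mice (log2 change 0.60, SE 0.24, unadjusted p = 0.0289, edgeR adjusted p = 1.00), with KO replicate 4 below both WT mice, and 3.69% of the genes tested had an unadjusted p under 0.05. The groups were also apart for Gzmc in the cells named Th1 (12.1% of the genes tested there), Gzma in exhausted CD8 (17.4%) and Nkg7 in Tregs (15.0%), each lower in KO.

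Over the 75 tests, 27 fold changes were above 0 and 48 below. Gzmb was below 0 in 10 of 10 cell types (-1.22 to -0.26) and Gzma in 9 of 9 (-2.97 to -0.52), Prf1 in 8 of 9, Gzmk in 7 of 10 and Gzmc in 4 of 7. Fasl was above 0 in 8 of 10, Nkg7 in 7 of 10 and Ifng in 5 of 10. The fits were repeated without Trbv15-positive cells (a subset defined with WT replicate 3 in a later paragraph) in the T cell types only. NK cells, part of the counts above, are thus not in the following ones. Gzmb was below 0 in 9 of 9, Gzma in 6 of 8, Prf1 in 7 of 8, Gzmk in 4 of 9 and Gzmc in 3 of 6. Fasl was above 0 in 7 of 9, Nkg7 in 6 of 9 and Ifng in 6 of 9. These fits share the same mice, so their signs are not independent. The difference in genotype effect between exhausted and precursor-exhausted CD8 cells passed for 0 of 8 members (2 of 10976 genes, 0.0182%), and 0 members had an unadjusted p under 0.05 (4.4% of the genes tested).

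**Figure D4:**
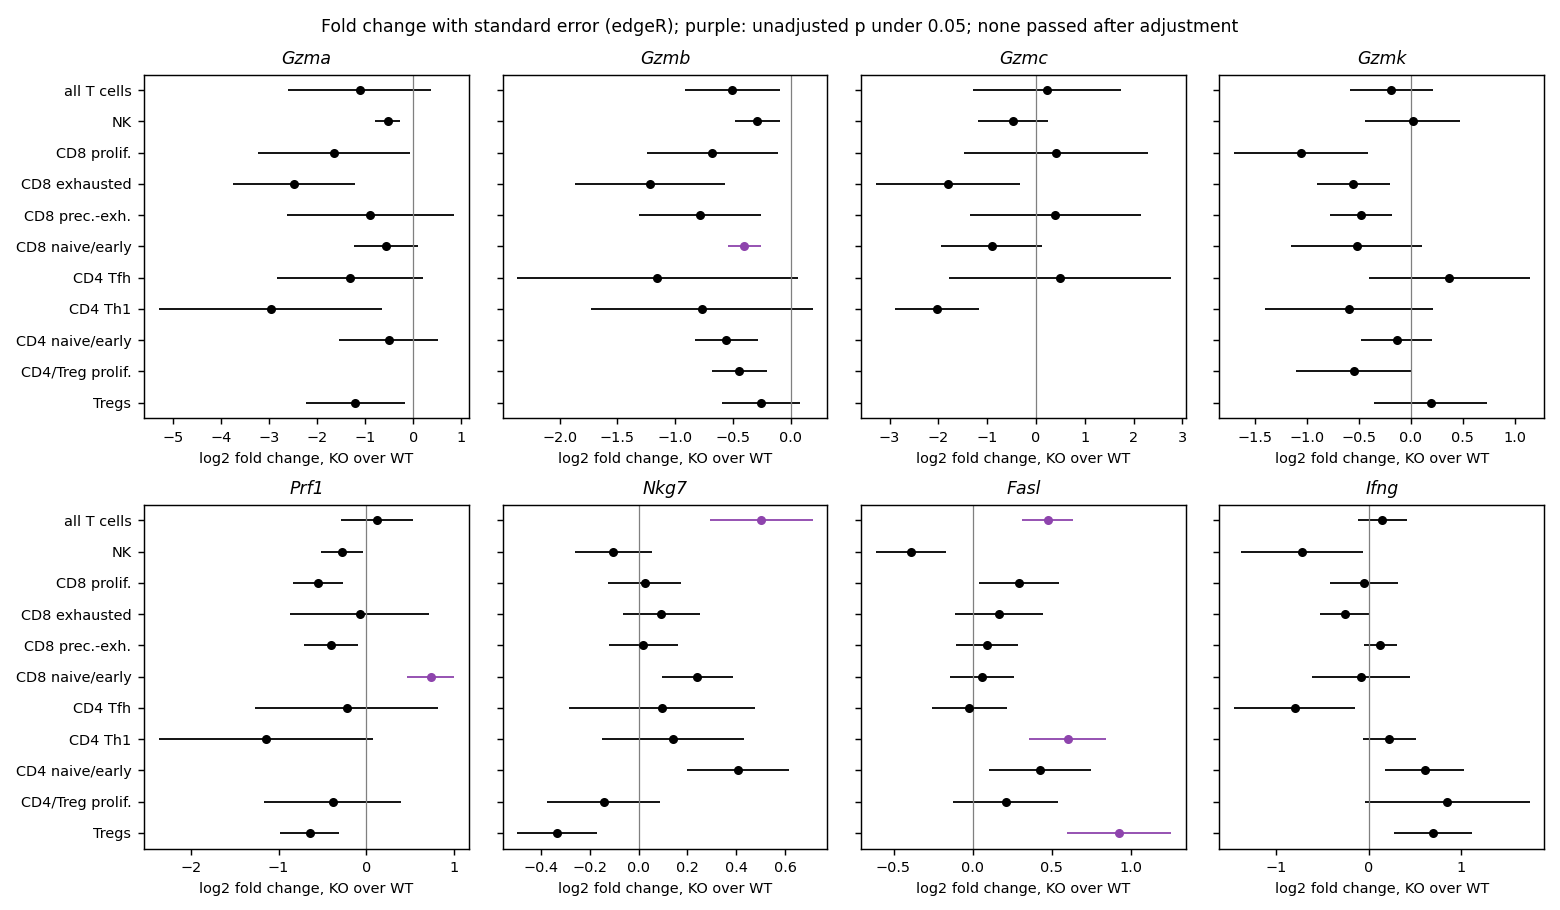
Log2 fold change KO over WT (horizontal axis, 1 panel per gene, each with its own range) with its standard error as a bar, for all T cells, NK cells and 9 T cell types. Purple marks an unadjusted p under 0.05, and no point passed after adjustment. Points of Gzmb and Gzma lie left of 0 in each fitted row and most points of Fasl lie right of it.

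WT replicate 3, without which the sign of Gzma, Gzmb and Gzmk in T cells turned, was examined further, a step chosen after its values were seen. It had the highest Gzma of all mice in 8 of 11 cell types, the highest Gzmk in 6 and the highest Gzmb in 5, whereas KO replicate 3 had the lowest Gzmb in 8. In CD8 T cells of WT replicate 3 (746 cells), the 96 cells with at least 20 Gzma UMIs were 12.9% of the cells and held 91.6% of the Gzma UMIs. Such a concentration was not confined to this mouse: cells past the same threshold were 10.0% of CD8 T cells with 92.7% of the Gzma UMIs in KO replicate 1 and 3.1% with 76.2% in KO replicate 2. In KO replicates 3 and 4 and WT replicate 2 they were 0.17%, 0.84% and 1.6% with 54.3%, 69.1% and 52.2%, and WT replicate 1 had 0 such cells among 19 with a Gzma UMI. Ncr1 was found in 15.6%, 9.6% and 15.8% of the cells past the threshold in KO replicates 1, 2 and 4 (32, 52 and 19 cells). In CD8 cells of these mice with 0 Gzma UMIs it was in 5.2%, 1.1% and 1.6%. The matching shares in WT replicate 3 were 1.0% and 1.7%. Cd3e, a T cell marker, was in 87.5%, 98.1% and 84.2% of the cells past the threshold in KO replicates 1, 2 and 4, and in 99.0% in WT replicate 3. The part of NK cells in these values was not tested. Of the CD8 cells of WT replicate 3, 49.1% had a UMI of the T cell receptor segment Trbv5, 46.9% of Trbv15 and 41.2% of Trav9-2. In the other 6 mice the most frequent V segment reached at most 39.6% (Trbv26 in KO replicate 4). Trbv15 was found in 80.2% of the 96 cells and in 42.0% of the other CD8 cells, Trbv5 in 80.2% and 44.5%, and Trav9-2 in 78.1% and 35.7%. The 96 cells were also deeper, with a median of 9783 UMIs against 6589 in cells with 1 to 19 Gzma UMIs and 5622 in cells with 0, and the part of depth in these shares was not tested.

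Within WT replicate 3 the 350 CD8 cells with a Trbv15 UMI had 3123 CPM of Gzma, 3414 of Gzmb, 471 of Gzmk, 261 of Gzmc and 3805 of Gzmf. The 396 cells without it had 578, 1244, 112, 167 and 696 CPM of these genes. Summed over all CD8 types, the granzymes were thus higher in the Trbv15-positive cells, by a similar ratio for Gzma and Gzmf. Prf1 (240 against 206 CPM), Nkg7 (2332 against 1888), Fasl (76.7 against 74.7) and Ifng (452 against 449) were nearly level. Median depths were 6324 and 5781 UMIs. The makeup of both sets differed, with 87 naive or early activated cells among those without the segment and fewer than 20 among those with it. In precursor-exhausted, exhausted and proliferating CD8 cells Gzma was at 2866, 2714 and 4391 CPM with the segment and 603, 746 and 404 CPM without it. Gzmc was at 190, 168 and 564 CPM with it and 74.3, 38.9 and 571 CPM without it, so Gzmc was level in proliferating cells. In KO replicate 3 the 129 CD8 cells with a Trbv15 UMI had 13.3 CPM of Gzma and 274 of Gzmb, below the 28.3 and 541 CPM of the cells without it, so the segment did not go with high granzyme levels in that mouse. The cells of 1 mouse are not replicates, and no test was made. Without Trbv15-positive cells in any mouse, the log2 change of Gzma in T cells was -0.04 and that of Gzmk 0.43.

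**Figure D5:**
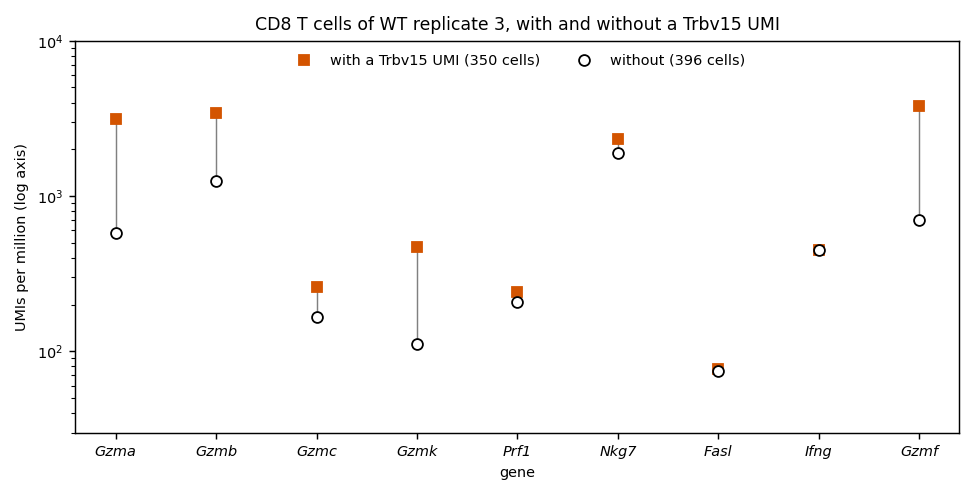
Level in CPM (log axis) of the 8 genes and Gzmf in CD8 T cells of WT replicate 3, with squares for the 350 cells with a Trbv15 UMI and open circles for the 396 cells without one. Squares lie well above circles for Gzma, Gzmb, Gzmk and Gzmf and close to them for Prf1, Fasl and Ifng.

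The sex of the mice also moved with Gzma. In T cells the 3 females had 371 to 1451 CPM and the 4 males 24.1 to 99.4 CPM, without overlap, and Gzmb was at 755 to 1697 CPM in females and 468 to 728 CPM in males. Each female was above each male for 2.8% of the genes tested in T cells. Of 12 cell groupings (all T cells and the 11 cell types), every female was higher for Gzma in 5, for Gzmb, Prf1 and Ifng in 2 each and for Gzmc, Gzmk and Fasl in 1 each, and every male was higher for Nkg7 in 2 and Fasl in 1. Over the 11 groupings that could be fitted, females were higher in this way in 3.71% of all tests and males in 5.82%. The females were 2 KO mice and 1 WT mouse, and this split was noticed after the values were seen, so it has no test. With sex as a term in the fit, the log2 change KO over WT in T cells was -0.97 for Gzma, -0.58 for Gzmb, 0.47 for Fasl and 0.50 for Nkg7, and 0 members passed.

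Other genes of the same pathways were read from 6 lists, and in edgeR 0 genes passed the adjustment in any of them, in T cells or NK cells. Of 20 genes of granule formation and release, 9 were higher and 11 lower in KO T cells and 6 and 14 in KO NK cells. Ctsw, a granule protease, was at 626 ± 92.1 CPM in the KO mice against 396 ± 77.9 CPM in the WT mice T cells (log2 change 0.69, unadjusted p = 0.00383, edgeR adjusted p = 0.721), and Ctsd, a lysosomal protease, was at 0.53 on the log2 scale (adjusted p = 0.721). In NK cells Calr, a chaperone also found in granules, was at -0.57 and Serpinb9b, a serpin of the family that inhibits granzymes, at -1.18 (both adjusted p = 1.00). With no filter on low counts Serpinb9b passed at -1.09 (edgeR adjusted p = 0.00766), the 1 of 14 alternatives in which it did.

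Of 12 genes of interferon-gamma induction and response, 5 were higher and 7 lower in T cells, and 3 and 8 of 11 tested in NK cells. Il12rb1, a subunit of the IL-12 receptor, had a log2 change of -0.34 in T cells (edgeR adjusted p = 0.738). Among 9 cytotoxic lineage transcription factors 5 were higher and 4 lower in T cells and 4 and 5 in NK cells. Tbx21 (T-bet) was at 0.48 in T cells (adjusted p = 0.731) and Tcf7 at 0.57 in NK cells (adjusted p = 1.00). The 9 death ligands and receptors split 4 higher and 5 lower in T cells and, of 7 tested, 4 and 3 in NK cells.

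The 4 chemokines released with granules were 3 higher and 1 lower in T cells (median log2 change 0.66) and 4 lower in NK cells (median -0.90), against 0.01 and -0.01 over all genes tested. Ccl5 in T cells was at 3303 ± 1287 CPM in the KO mice against 2174 ± 301 CPM in the WT mice (log2 change 0.64, unadjusted p = 0.0404, edgeR adjusted p = 0.738). With the shares of T cell types held equal, over 7 types and over all 10 in 6 mice, the T cell changes of the list genes named here were smaller: 0.31 and 0.22 for Ctsw, 0.25 and 0.11 for Ctsd, 0.14 and 0.09 for Tbx21, 0.22 and 0.25 for Ccl5 and -0.06 and -0.30 for Il12rb1. Without single mice, Ccl5 was at 0.35 (KO replicate 3), and Ctsd at 0.33 and Tbx21 at 0.29 (WT replicate 1 for both). The other granzymes that passed the filter on low counts were lower in KO, 3 of 3 in T cells and 4 of 4 in NK cells (median -1.59 and -2.82), with an SE of at least 1.25 for each. Gzmd in NK cells was at 152 ± 138 CPM in the KO mice against 1063 ± 1137 CPM in the WT mice.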

How the data were processed

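The deposited matrix holds expected counts of UMIs per gene and cell: the authors did not scale them, and 7.51% of the values above 0 are not whole. Per the submitters' processing notes, FastQC 0.11.5, STARsolo in STAR 2.7.10a and the mm10 build were used. The deposited cell table gives the library and the authors' cell type name. How cells were filtered, doublets treated and names assigned is not given in the sources used here.

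UMIs were summed per mouse and cell type and rounded to whole counts (the tests had been laid out for whole counts), and fitted in edgeR 4.0.16 (R 4.3.3) after TMM scaling and filterByExpr, by the robust quasi-likelihood test with Benjamini-Hochberg adjustment over all genes tested. Libraries with fewer than 20 cells of a type were left out. The 7 mice are the replicates. Shares of cells are exact expected shares after thinning to 2000 UMIs. The steps were tested on simulated data. Limma 3.58.1 and DESeq2 1.42.0 served as alternatives. The sex term, the removal of Trbv15-positive cells and the equal shares over all T cell types were added after the data were seen. Members, lists and tests were chosen with earlier results of these data known. Named are the 8 members, in single cell types where p was under 0.05, and list genes with p under 0.05. Coordinates are from GENCODE M21 and RefSeq, and intervals of counting error are not given because replicate spread is.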

Additional observations from a re-analysis of the deposited data

Results flagged for a closer look

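In groups of 4 KO mice, the highest or lowest value was tested for its gap to the nearest other mouse, relative to the range of the group. Of 80 groups (8 genes in 10 cell types), 12 had a gap above Dixon's 95% critical value. About 1 in 20 groups of independent, normally distributed values would pass it. The 80 groups share the same 4 mice, and whether their values are normally distributed was not tested. The count of 12 is thus a description and not read as an excess. KO replicate 1 accounted for 7 of the 12. It had 378 CPM of Gzmc in precursor-exhausted CD8 cells (next mouse 64.7), 1804 CPM of Gzmc in proliferating CD8 cells (next 296) and 233 CPM of Prf1 in exhausted CD8 cells (next 116). In the cells named Tfh this mouse had 681 CPM of Gzmb (next 189), 469 CPM of Gzmc (next 30.1) and 367 CPM of Prf1 (next 105). In those named Th1 it had 212 CPM of Gzmb (next 58.1). KO replicate 2 stood apart for Gzma in CD4 cells, with 284 CPM in the cells named Th1 (next 5.34, from 298 UMIs), 152 CPM in naive or early activated CD4 cells (next 34.2, from 58 UMIs) and 51.6 CPM in Tregs (next 7.72, from 33 UMIs). On the low side, KO replicate 3 had 54.5 CPM of Gzmb in naive or early activated CD4 cells (next 86.6), and KO replicate 4 had 57.0 CPM of Fasl in the cells named Th1 (next 101).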

How the results depend on the processing

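The count of members passing the adjustment stayed at 0 in T cells and in NK cells under each alternative run. Over the single cell types it was 0 to 1 when 1 replicate was left out (1 without WT replicate 2: Gzma in proliferating CD4 cells and Tregs, -7.91, with 1 WT mouse assumed to vary like the others) and 6 with the replicate block. The block's 6 were Gzma, Gzmb and Gzmc in exhausted CD8 cells, Gzma in proliferating CD4 cells and Tregs, Gzmc in the cells named Th1 and Fasl in Tregs (1.32, adjusted p = 0.0365), from fits of 4 against 2 mice with 1 residual degree of freedom. The replicate numbers were taken as not pairing the mice. Deviations of same-numbered mice correlated at 0.066, 0.00059 and -0.069 in T cells and -0.21, 0.0089 and -0.31 in NK cells. The mice of each such pair were of opposite sex, so whether the numbers pair the mice cannot be decided from these values. The difference between exhausted and precursor-exhausted CD8 cells passed for 0 to 1 members when a replicate was left out (Prf1, 3.40, adjusted p = 0.0398, without WT replicate 3, with 1 WT mouse assumed to vary like the others). Signs turned in T cells as follows, and the cause was not tested: without WT replicate 3, Gzma 1.71, Gzmb 0.097 and Gzmk 0.34; without KO replicate 1, Gzmc -1.94 and Prf1 -0.16; without WT replicate 2, Gzmc -0.23 and Prf1 -0.19; without WT replicate 1, Ifng -0.074; with the replicate block, Gzma 0.89, Gzmc -0.39 and Gzmk 0.11; with sex as a term, Gzmc -1.15; without Trbv15-positive cells, Gzmk 0.43; and with the shares held equal over 7 of 10 T cell types (without exhausted CD8, Th1 and Tregs), Gzmc -0.90, Prf1 -0.51 and Ifng -0.26, and over all 10 in 6 mice (without WT replicate 1), Gzmc -0.75, Prf1 -0.25 and Ifng -0.20. In NK cells Gzmk turned to -0.14, -0.18, -0.18 and -0.055 without KO replicates 1 and 2 and WT replicates 2 and 3, and to -0.061 with sex as a term. Nkg7 there turned to 0.080 without WT replicate 1. When 1 replicate was left out, the T cell values lay between -1.76 and 1.71 for Gzma, -0.78 and 0.10 for Gzmb, -1.94 and 0.62 for Gzmc, -0.52 and 0.34 for Gzmk, -0.19 and 0.70 for Prf1 and -0.07 and 0.35 for Ifng, and those of Gzmk in NK cells between -0.18 and 0.36. The NK values of WT replicates 1 and 2 rest on 51 and 53 cells.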

Other observations

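In T cells, the 1% of cells with the most Gzma UMIs held between 29.8% (WT replicate 3) and 83.8% (KO replicate 4) of a mouse's Gzma UMIs.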
